A study of Mus musculus with 40 samples.

Results

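The genes described here are 9 genes of the complement system in the mouse heart: the regulators *Cfi*, *Cfp*, *Serping1*, *Cd55* and *Cd59a*, the receptors *C3ar1* and *C5ar1*, and the terminal components *C6* and *C7*. They were taken by name from the 17038 genes that both tables of expression values list, and all 9 passed the filter on low values and were tested in both sexes. Complement is a cascade of blood proteins in which activation cleaves C3 and then C5. The fragments C3a and C5a act on receptors of leukocytes, and the larger fragment of C5 binds C6 and C7 to begin the membrane attack complex, a pore in the membrane of the target. Regulators in the fluid or on the cell surface slow each step, except properdin, the product of *Cfp*, which stabilises the C3-cleaving enzyme of the alternative pathway. Most of the circulating proteins come from the liver, but fibroblasts, macrophages and other cells of solid tissues also make complement proteins.

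PolyA RNA was sequenced from 1 mouse per library. The labels give the tissue as heart, while the study's text names the left ventricle in one place and the ventricles in another, so the part sampled is uncertain. CM-Il11-Tg mice carried *Rosa26-Il11* and the α-MHC-MerCreMer transgene, both heterozygous, so that tamoxifen switches on *Il11* in cardiomyocytes, and received tamoxifen at 20 mg/kg on 5 consecutive days from 8 weeks of age. Hearts were taken 1, 3 and 6 weeks later. Control mice (WT) were littermates with α-MHC-MerCreMer and without *Rosa26-Il11*, also given tamoxifen, and uninduced mice were CM-Il11-Tg without tamoxifen, so that uninduced and control hearts differ in both the transgene and tamoxifen, which cannot be told apart. The study calls the controls age-matched, but when the control and uninduced hearts were taken is not given in the sources used here, so age and time after tamoxifen may also differ in every comparison with them. Each sex had 4 libraries per group, except 3 male control and 3 male 6-week libraries, because 2 further male libraries carry contradictory labels (control in one place, 6 weeks in another) and were left out. Values are in CPM, a read count divided by a library size that the authors scaled within each sex. The reads on listed genes numbered 16663513 to 65333832 in males and 19147947 to 30929192 in females, so that 1 read was worth a small fraction of 1 CPM in every library.

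*Il11*, the induced gene, lay between 0 and 0.166 CPM in the control libraries of both sexes. It lay between 328 and 819 CPM in the induced libraries, those of CM-Il11-Tg mice given tamoxifen. In uninduced hearts it lay between 15.5 and 49.1 CPM, above every control library. The 8 cardiomyocyte markers together held at least 24980 CPM in every library. In whole-tissue RNA, fewer cells of a type and less RNA per cell cannot be told apart.

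*C6* (ENSMUSG00000022181, chr15:4756525-4844580 on GRCm39, plus strand) and *C7* (ENSMUSG00000079105, chr15:5017233-5093252, minus strand) lie near each other, and their promoters are shown because interleukin 11 signals through STAT3, whose binding site is TTCNNNGAA. RefSeq's promoter table for GRCm38.p6, which gives 250 bases before and 50 after a start site, held 7 of the 9 genes, without *Cfi* and *Serping1*. The letters of the STAT site, whose pattern TTCNNNGAA is the same on both strands, are in capitals.
C7, chr15:5063724-5064023, minus strand: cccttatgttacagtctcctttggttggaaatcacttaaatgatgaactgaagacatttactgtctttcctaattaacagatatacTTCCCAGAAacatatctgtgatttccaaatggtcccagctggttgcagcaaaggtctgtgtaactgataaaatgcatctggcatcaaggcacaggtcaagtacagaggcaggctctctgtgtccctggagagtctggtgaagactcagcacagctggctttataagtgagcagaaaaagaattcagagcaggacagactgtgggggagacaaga
C6, chr15:4726960-4727259, plus strand: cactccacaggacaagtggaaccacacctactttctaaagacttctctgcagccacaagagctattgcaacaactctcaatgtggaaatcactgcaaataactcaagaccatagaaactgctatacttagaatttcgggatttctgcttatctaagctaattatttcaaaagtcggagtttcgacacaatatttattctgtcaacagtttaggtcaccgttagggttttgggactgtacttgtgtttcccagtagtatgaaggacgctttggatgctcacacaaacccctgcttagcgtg
The site occurred in the promoter of *C7*, from 164 to 156 bases before the start, and in none of the other 6. It occurred in 8.30% of the 32851 promoters of the table, so that 1 in 7 is no more than a description. The interferon response element occurred in *Cd59a* alone, 187 to 178 bases before the start, and in 3.44% of all promoters. The C/EBP palindrome TTGCGCAA, the PU.1 core GAGGAAGT and the NF-κB site, searched on both strands, were not found in these 7 windows and occur in 0.183%, 3.20% and 0.155% of all promoters.

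After induction, 8 of the 9 genes were higher than control at 1 or more times in each sex, and the surface regulator *Cd59a* was not called at any time. In males 7 of 9 were called higher at 1 week, 7 of 9 at 3 weeks and 8 of 9 at 6 weeks (limma, adjusted p under 0.05), where 18.9%, 13.2% and 16.2% of all genes tested were called higher. In females 8 of 9 were called higher at each of the 3 times, against 15.3%, 16.8% and 21.7% of all genes. None was called lower, while 14.6%, 8.1% and 10.9% of all genes were in males and 13.1%, 14.5% and 21% in females. The median log2 fold change of the 9 was 2.20, 1.87 and 2.04 at the 3 times in males and 1.74, 1.85 and 1.84 in females, beside medians over all genes between -0.02 and 0.02. The 3 times share their control libraries, so the comparisons are not independent of each other.

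**Figure D1:**
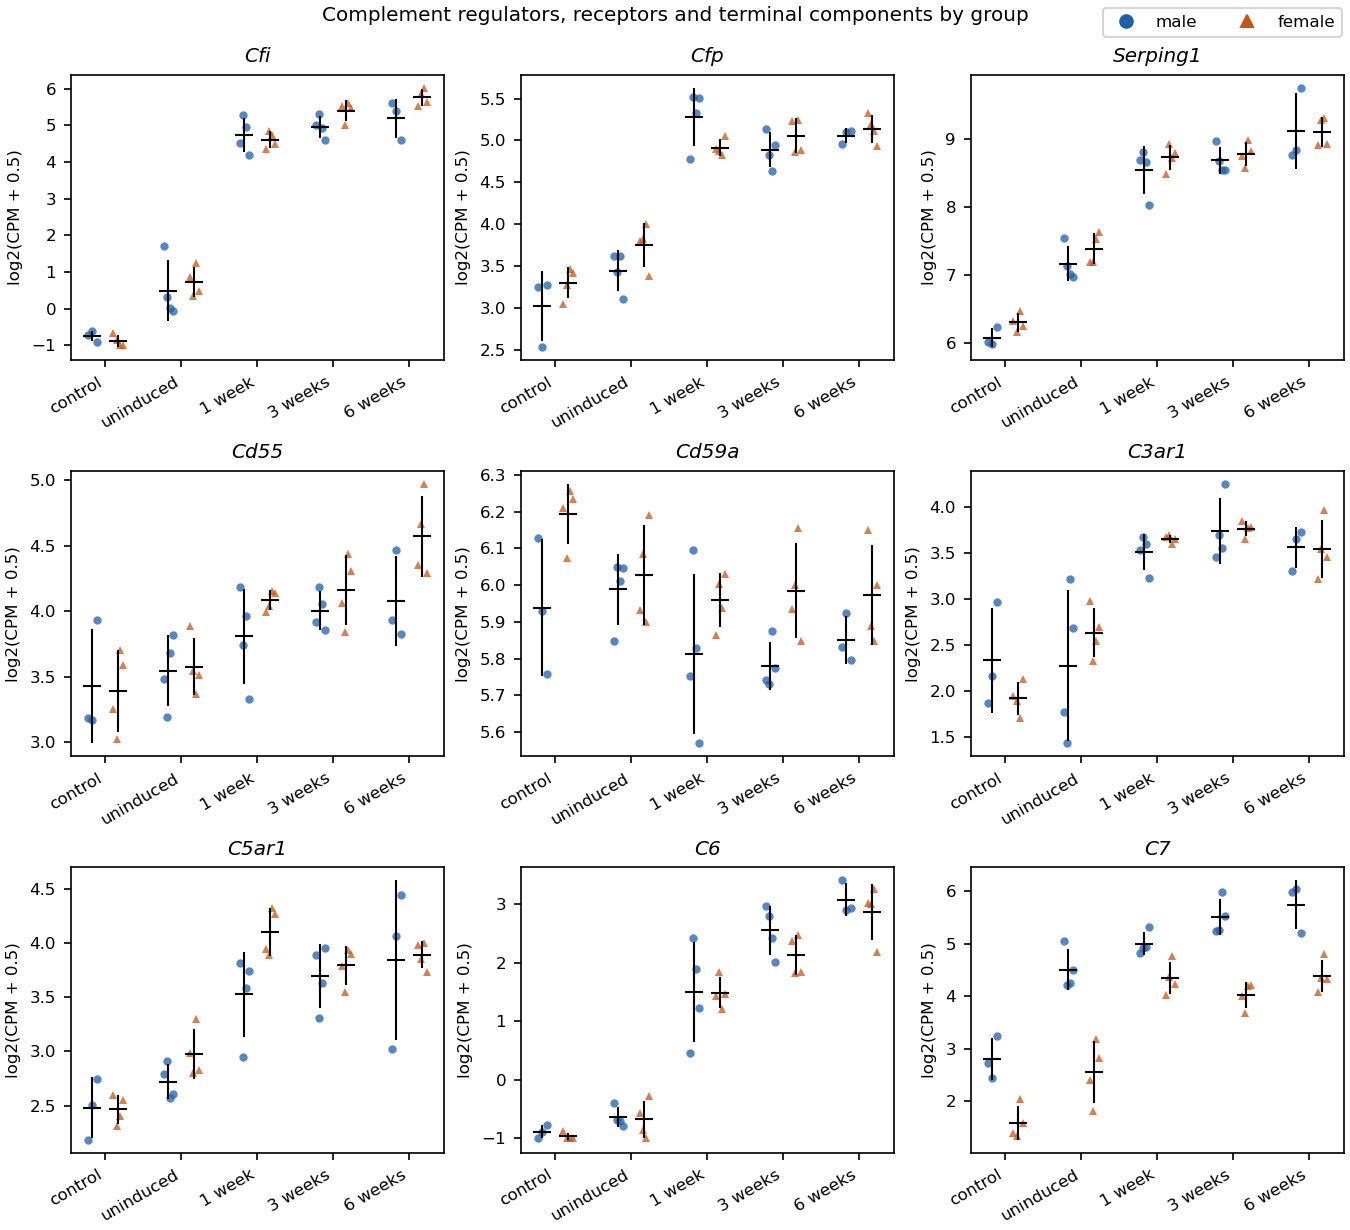
Expression of each gene as log2(CPM + 0.5) (y axis) by group (x axis), with 1 point per library, circles for males and triangles for females. Bars give the mean and SD of 3 or 4 libraries. *Cfi*, *Serping1*, *C6* and *C7* stand well above control in induced hearts, while *Cd59a* stays between 47 and 75.8 CPM throughout.

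*Cfi* encodes complement factor I, the plasma protease that cuts C3b and C4b into inactive forms, and its fitted rise was the largest of the 9 (ENSMUSG00000058952, chr3:129629533-129668981 on GRCm39, plus strand). Male control libraries held 0.112, 0.151 and 0.0326 CPM, which are 3, 4 and 2 reads, and female control libraries held 3, 1, 0 and 0 reads. At 1 week males had 22.3, 38.1, 30.4 and 17.9 CPM, and females 20.1, 28.4, 26.3 and 22 CPM. At 6 weeks males had 48.3, 41.4 and 23.7 CPM, and females 45.5, 57.5, 65 and 49.8 CPM. No induced library overlapped control. With control reads this few the ratio of pooled reads is uncertain: at 6 weeks it was 473 in males (exact 95% interval 248.9 to 1035, on 4177 reads against 9) and 1114 in females (435 to 4091, on 5954 reads against 4), counting error only. The fitted log2 fold changes, 5.94 ± 0.37 (SE) in males and 6.65 ± 0.18 in females at 6 weeks, depend on the 0.5 added to each value. By that measure *Cfi* ranked between 6 and 11 among all genes tested in each sex and at each time.

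*Serping1* encodes the C1 inhibitor, which blocks the proteases C1r, C1s and the MASPs as well as plasma kallikrein (ENSMUSG00000023224, chr2:84595705-84620873 on GRCm39, minus strand). Control libraries held 64.4, 62.7 and 74.8 CPM in males and 79.6, 70.7, 88.6 and 75.8 CPM in females. At 6 weeks the values were 433, 454 and 863 CPM in males and 482, 623, 635 and 483 CPM in females. Every induced library of either sex was above every control library, the lowest being a male 1-week library at 260 CPM. The log2 fold change was 2.47, 2.61 and 3.04 in males at 1, 3 and 6 weeks (SE 0.22 to 0.23) and 2.43, 2.48 and 2.80 in females (SE 0.13), with adjusted p of 6.8e-08 or below.

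*Cfp*, the gene of properdin, which leukocytes make, was between 5.3 and 9.17 CPM in male and between 7.79 and 10.5 CPM in female controls. Induced hearts held 24.4 to 45.5 CPM in males and 27.9 to 39.5 CPM in females, without overlap. The log2 fold change was 2.27, 1.87 and 2.04 in males (SE 0.19 to 0.21) and 1.61, 1.75 and 1.84 in females (SE 0.13). On the opposite strand, exons of *Gm61816* share 16% of the exonic bases of *Cfp*, and exons of *Gm16083* share 11.5% of those of *Cd55*. Whether the counting used the strand is not given in the sources used here.

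The surface regulators *Cd55* and *Cd59a* had the smallest fitted differences from control of the 9 in each sex at 1, 3 and 6 weeks. *Cd55*, decay-accelerating factor, which takes apart the C3- and C5-cleaving enzymes on the cell's own membrane, had 9.04, 7.65, 12.6 and 11.5 CPM in female controls and 20, 24.8, 30.9 and 19.1 CPM in females at 6 weeks. Its log2 fold change in females was 0.69, 0.77 and 1.18 (SE 0.17, adjusted p = 0.0035, 0.0013 and 1.1e-05), and no induced female library overlapped control. In males the control libraries were at 8.58, 8.52 and 14.8 CPM and the 6-week libraries at 14.8, 21.6 and 13.7 CPM, so that the groups overlapped. The male log2 fold change was 0.38 and 0.58 at 1 and 3 weeks (adjusted p = 0.19 and 0.065) and 0.65 at 6 weeks (adjusted p = 0.044). Male control replicate 4 was the highest of the 3, and without it the male values were 0.63, 0.83 and 0.90, each called. The male call at 6 weeks was lost with edgeR (adjusted p = 0.054) and in a limma fit of the compared groups alone (adjusted p = 0.12). It was also lost in 9 of the fits that left out 1 library, with adjusted p up to 0.18. Reads of the related gene *Cd55b* were counted apart, at below 1 CPM on average in each control and 6-week group.

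*Cd59a*, which stops the last step of the membrane attack complex, was the only one of the 9 whose estimates against control were below 0 in both sexes at all 3 times. Female controls held 73.5, 66.8, 75.8 and 74.8 CPM, and female 1-week hearts 57.8, 63.7, 60.8 and 64.9 CPM, all lower. At 6 weeks the female values were 70.6, 58.7, 57.1 and 63.6 CPM and overlapped control. The female log2 differences were -0.23, -0.21 and -0.22 (95% interval at 6 weeks -0.41 to -0.04), with adjusted p of 0.054, 0.08 and 0.051. In males they were -0.13, -0.16 and -0.09, with an interval at 6 weeks from -0.35 to 0.17. The female difference was called at 1 or more times when 1 of several libraries was left out, for example at 6 weeks without 6-week replicate 1 (-0.28, adjusted p = 0.019), and at 1 week in a fit of the compared groups alone (adjusted p = 0.027). The related gene *Cd59b*, at 4.36 and 5.46 CPM in male and female controls, was not called at 1 or 6 weeks in either sex.

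**Figure D2:**
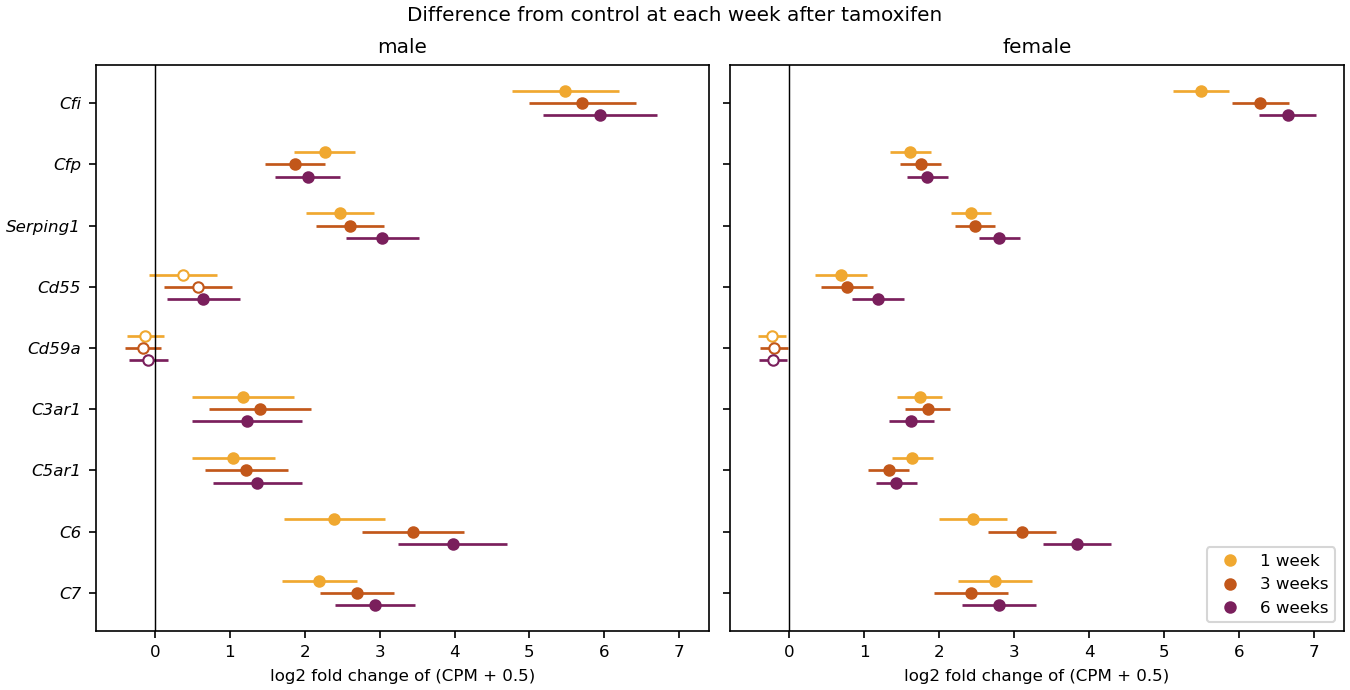
Log2 fold change of (CPM + 0.5) against control (x axis) for each gene (y axis) at 1, 3 and 6 weeks, with 95% intervals from the limma fit, males left and females right. Filled points were called at an adjusted p under 0.05. *Cd59a* has no filled point in either sex.

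Both receptors rose in both sexes at all 3 times. *C3ar1*, the receptor of C3a on myeloid cells, was at 3.15, 3.98 and 7.33 CPM in male controls and at 9.4, 12 and 12.7 CPM in male 6-week hearts. Female controls held 3.36, 3.19, 2.75 and 3.88 CPM and female 6-week hearts 8.76, 11.2, 15.2 and 10.5 CPM. No induced library of either sex fell among its controls. The log2 fold change was 1.18, 1.40 and 1.23 in males (SE 0.33 to 0.35) and 1.74, 1.85 and 1.63 in females (SE 0.14). The male calls were less firm, since without control replicate 1 the values were 0.94 at 1 week (adjusted p = 0.06) and 1.00 at 6 weeks (adjusted p = 0.071), and without control replicate 3 the 6-week value was 1.14 (adjusted p = 0.054).

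*C5ar1*, the receptor of C5a on neutrophils and macrophages, was between 4.05 and 6.2 CPM in male and between 4.45 and 5.55 CPM in female controls. Induced hearts held 7.24 to 21.2 CPM in males and 11.2 to 19.5 CPM in females, again without overlap. The log2 fold change was 1.05, 1.22 and 1.36 in males (SE 0.27 to 0.28) and 1.64, 1.33 and 1.43 in females (SE 0.13).

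The terminal components were called higher at every time. *C6* was close to silent in control hearts, with 0, 1 and 5 reads in males and 1, 0, 0 and 0 reads in females. At 1 week the libraries held 0.87, 4.89, 3.22 and 1.84 CPM in males and 2.21, 3.09, 1.8 and 2.26 CPM in females. At 6 weeks they held 10.1, 6.96 and 7.14 CPM in males and 7.65, 7.56, 9.1 and 4.04 CPM in females. All induced libraries were above all controls. The ratio of pooled reads to control at 6 weeks was 156 in males (exact 95% interval 71.6 to 427, on 921 reads against 6). In females 759 reads stood against 1, a ratio of 568 whose interval runs from 102 to 22470. Both intervals cover counting error only, not the spread between mice. The fitted log2 fold change at 6 weeks was 3.97 ± 0.35 in males and 3.84 ± 0.22 in females on the scale with 0.5 added.

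*C7* was present before induction. Male controls held 6.11, 4.96 and 8.99 CPM and female controls 2.15, 2.03, 3.65 and 2.49 CPM, from tables scaled separately. At 1 week males had 27.8, 29.9, 30.3 and 39.3 CPM, and females 15.8, 20.2, 26.6 and 18.3 CPM. At 6 weeks males had 62.6, 65.3 and 36.4 CPM, and females 16.5, 19.8, 27.6 and 19.7 CPM. In males *C7* exceeded control by 2.20 on the log2 scale at 1 week and by 2.94 at 6 weeks (SE 0.24 to 0.26), and the differences were 2.75, 2.43 and 2.80 in females (SE 0.24). The annotation puts *Gm63189* across 0.803% of the exonic bases of *C7* on the opposite strand.

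After 1 week, *C6* and *Cfi* went on rising in females. At 6 weeks against 1 week, *C6* was higher by 1.39 ± 0.22 (SE, log2, adjusted p = 0.0015) and *Cfi* by 1.15 ± 0.18 (adjusted p = 0.0015) in females, and all 4 female 6-week libraries were above all 4 female 1-week libraries in both genes. They were 2 of 9, where 0.891% of all genes were called higher. In males none of the 9 was called, where 0.13% of all genes were called higher, 3 members and 15.4% of all genes had an unadjusted p under 0.05, edgeR called none and DESeq2 called 1. Male *C6* was higher by 1.58 ± 0.32 (adjusted p = 0.053), with every 6-week library above every 1-week library, and was called without 1-week replicate 2 (1.89, adjusted p = 0.014) or with a pseudocount of 2 (1.16, adjusted p = 0.022). Male *Cfi* differed by 0.46 (95% interval -0.25 to 1.18). For the other 7 genes the differences lay between -0.23 and 0.74 in males and between -0.21 and 0.49 in females. Among these, *Cd55* in females was not called, but its libraries also separated. The lowest at 6 weeks was 19.1 CPM and the highest at 1 week 17.4 CPM. The share of all genes that separate in this way was not computed.

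**Figure D3:**
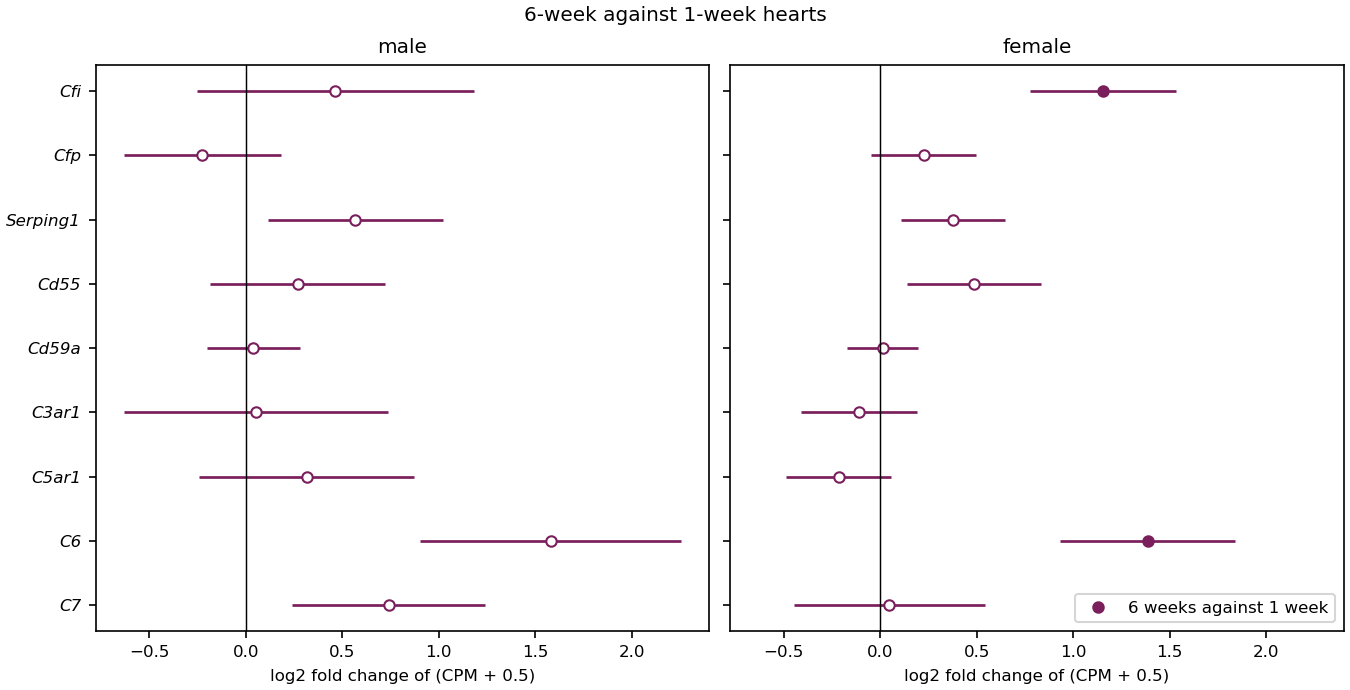
Log2 difference between 6-week and 1-week hearts (x axis) for each gene (y axis) with 95% intervals, males left and females right. Filled points, called at an adjusted p under 0.05, are *Cfi* and *C6* in females.

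Between neighbouring times no member was called. For 3 weeks against 1 week, 3 members in each sex had an unadjusted p under 0.05, as did 16% of all genes in males and 10% in females, edgeR called none in either sex, and DESeq2 called none in males and 1 in females, where limma called 0.0177% of all genes in males and 0.218% in females. For 6 weeks against 3 weeks, 0% of all genes were called in either sex, no member in males and 3 in females had an unadjusted p under 0.05, as did 6.33% and 15.2% of all genes, and edgeR and DESeq2 called none. *C6* gave the largest estimates of these 9 between 3 weeks and 1 week in males, at 1.05 (adjusted p = 0.14), and between 6 and 3 weeks in both sexes, at 0.53 and 0.74 (adjusted p = 0.76 and 0.18).

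Some of the 9 genes were already higher in uninduced hearts, which already held *Il11* reads. In uninduced males *Serping1* (186, 140, 128 and 125 CPM) was higher than control by 1.09 ± 0.22 on the log2 scale (adjusted p = 0.018) and *C7* (32.7, 18.1, 18.6 and 22.2 CPM) by 1.70 ± 0.24 (adjusted p = 0.00052), which makes 2 of 9 where 0.561% of all genes were called higher. In uninduced females 5 of 9 were called, where 2.41% of all genes were. These were *Cfi* (0.761, 1.31, 1.9 and 0.89 CPM, fitted difference 1.62), *Serping1* (146, 146, 183 and 198 CPM, 1.09), *C7* (3.05, 4.84, 8.6 and 6.55 CPM, 0.97), *C3ar1* (0.72) and *C5ar1* (0.51). The *C7* ranges overlapped between uninduced and control females. Ranges did not overlap for *Cfi* and *Serping1* in either sex, for *C7* in males, and for *C3ar1* and *C5ar1* in females. How many of all genes separate in this way was not computed.

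In uninduced males *Cfi* had 2.77, 0.741, 0.516 and 0.456 CPM, a ratio of pooled reads to control of 13.7 (exact 95% interval 7 to 30.7), but its fitted difference of 1.24 was not called (adjusted p = 0.14). The interval covers counting error only, not the spread between mice, and 75 of the 127 reads came from 1 library. The difference of *Cfi* was called with edgeR (adjusted p = 0.039), DESeq2 (0.00017) or a pseudocount of 0.1 (0.0072). *C6* lay between 0 and 0.324 CPM in uninduced hearts of both sexes, with fitted differences of 0.24 and 0.29 that were not called. Its pooled reads were 16 against 6 in males, a ratio of 2.59 (exact 95% interval 0.964 to 8.09), and 12 against 1 in females, a ratio of 11.4 (1.69 to 489). These intervals too cover counting error only. Several calls rested on few libraries. Male *Serping1* was not called without control replicate 1 (adjusted p = 0.096), control replicate 3 (0.15) or uninduced replicate 1 (0.094). Female *C7* and *C5ar1* were each lost in several such fits, with adjusted p up to 0.13 and 0.15.

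**Figure D4:**
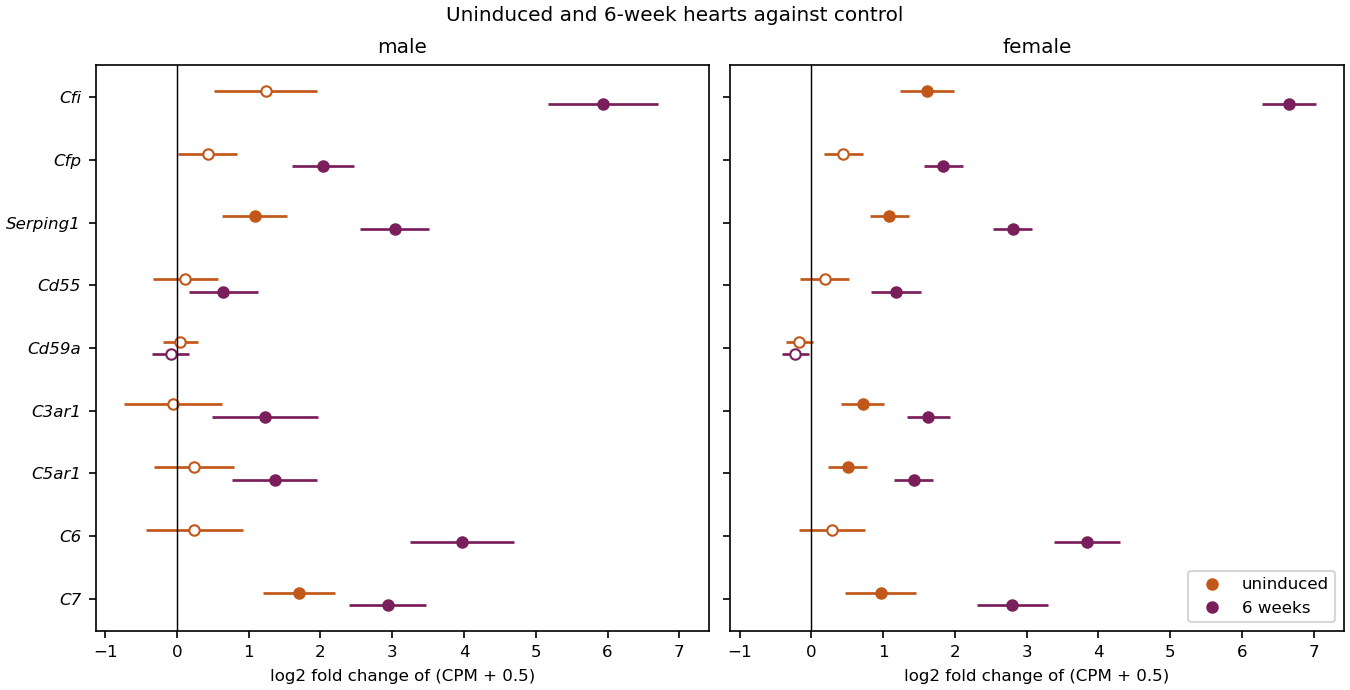
Log2 fold change of (CPM + 0.5) against control (x axis) in uninduced and in 6-week hearts for each gene (y axis), with 95% intervals, males left and females right. Filled points were called at an adjusted p under 0.05. In males *C7* was at 1.70 in uninduced and 2.94 in 6-week hearts, while *C6* was at 0.24 and 3.97.

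Induced hearts at 6 weeks were in turn above uninduced hearts. In males 7 of 9 were called higher, where 13% of all genes were, and in females 8 of 9, where 13.7% were. *Cfi* differed by 4.70 and 5.04 and *C6* by 3.73 and 3.55 (log2, males and females). *C7* differed by 1.23 in males and 1.83 in females, and *Serping1* by 1.95 and 1.72. *Cd59a* differed by -0.14 and -0.05 (95% intervals -0.38 to 0.10 and -0.24 to 0.13).

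The change against control was compared between the sexes in a joint fit, in which sex and table cannot be told apart. None of the 9 was called at any time or in uninduced hearts, 0% of the 16627 genes tested in both sexes were called in each of the 4 comparisons (limma), and edgeR and DESeq2 called no member. Before adjustment the limma p was under 0.05 for *Cfp* at 1 week (male minus female 0.65 on the log2 scale, adjusted p = 0.15), and in uninduced hearts for *C3ar1* (-0.77) and *C7* (0.74), both with an adjusted p of 0.91. Of all genes 17.5%, 4.16% and 17.4% had an unadjusted p under 0.05 at 1, 3 and 6 weeks and 5.18% in uninduced hearts. At 6 weeks the 95% intervals of the male minus female difference were -1.55 to 0.13 for *Cfi*, -1.12 to 0.06 for *Cd55* and -0.61 to 0.89 for *C7*.

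Per kilobase of exon, *Serping1* was the most abundant of the 9 in every group, at 22.2 ± 2.15 CPM per kb in male and 25.9 ± 2.48 in female controls (SD, n = 3 and 4) and 192 ± 79.8 and 183 ± 27.9 at 6 weeks. In controls *Cd59a* followed, at 9.74 and 11.6 CPM per kb, then *Cfp* at 4.49 and 5.41, and these 3 levels did not overlap with those below them. *C5ar1* and *Cd55* came next with ranges that overlapped in both sexes, followed by *C7* and *C3ar1*, whose ranges also overlapped in both sexes. In male controls the range of *C7* also overlapped with those of *C5ar1* and *Cd55*, and the range of *C3ar1* with that of *Cd55*. *Cfi* and *C6* were last. At 6 weeks *Cfp* (18.9 and 20.1 CPM per kb) and *Cfi* (15.6 and 22.5) both stood above *Cd59a* (9.11 and 9.95), with overlapping ranges between *Cfp* and *Cfi* in both sexes. *C6* was the lowest at 6 weeks as well, at 1.89 and 1.66 CPM per kb, and its range overlapped with that of *C3ar1*.

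Of the 16 activation components tested in each sex, 14 were called higher at 6 weeks in both sexes and none lower, and their median was 2.48 (male) and 3.03 (female) on the log2 scale. They include *C3* (4.30 and 5.49), *C4b* (6.32 and 6.65) and *C1qa* (2.21 and 2.50), while *Colec11*, a lectin of the lectin pathway, was not called (-0.11 and 0.03). *C4a* and *C4b* are near-identical copies whose reads may have been split. All 5 other receptors tested, *C5ar2*, *Itgam*, *Itgax*, *Itgb2* and *Vsig4*, were called higher in both sexes at 6 weeks, with medians of 1.37 and 1.93. Of the other regulators 4 of 10 were called higher in males and 6 of 11 in females, among them *Clu*, clusterin (3.06 and 3.26). The share of all genes called higher was 16.2% in males and 21.7% in females.

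The regulators called lower at 6 weeks were *Cpn2*, a subunit of the anaphylatoxin-inactivating carboxypeptidase N, in males (-0.68), and in females *Vtn*, vitronectin (-0.47), and *Cd46*, membrane cofactor protein (-1.50). The share of all genes called lower was 10.9% in males and 21% in females. Of the other terminal components, *C8g* was the only one in the tables, at 2.55 and 2.79 CPM in male and female controls. It was called lower in females at 6 weeks (-0.55, adjusted p = 0.028) and not in males (-0.07, adjusted p = 0.90). *Hc* (the gene of C5), *C8a*, *C8b* and *C9* are not listed in either table.

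Marker genes of several cell types moved in the same libraries. The 8 macrophage markers together held 146 to 292 CPM in controls, 238 to 365 CPM in uninduced hearts and 584 to 917 CPM in induced hearts over both sexes, and 6 of 8 in males and 7 of 8 in females were called higher at 6 weeks. The 8 fibroblast markers held 738 to 1178 CPM in controls, 1308 to 2036 CPM in uninduced hearts and 4774 to 12280 CPM in induced hearts, and 7 of 8 were called higher in each sex at 6 weeks. Over all genes tested, 16.2% in males and 21.7% in females were called higher at that time. At 6 weeks the macrophage markers had medians of 1.59 (male) and 2.02 (female) on the log2 scale, beside 1.23 and 1.63 for *C3ar1* and 1.36 and 1.43 for *C5ar1*. The median of the fibroblast markers was 2.03 and 2.15, beside 3.04 and 2.80 for *Serping1* and 2.94 and 2.80 for *C7*. The part of either cell type in these changes was not tested.

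The other lists were called less evenly. At 6 weeks 16.2% of all genes in males and 21.7% in females were called higher, and 10.9% and 21% lower. At 6 weeks in males and females, mesothelial markers were called higher in 0 of 7 and 7 of 8, neutrophil markers in 2 of 4 and 2 of 4, T cell markers in 1 of 4 and 5 of 7, and B and plasma cell markers in 2 of 5 and 2 of 6, where 1 female gene was called lower. Endothelial markers were called lower in 4 of 8 and 5 of 8, pericyte and smooth muscle markers in 2 of 8 and 2 of 8, cardiomyocyte markers in 2 of 8 and 5 of 8 and adipocyte markers in 1 of 2 and 1 of 2. Erythroid markers were called in 0 of 6 in both sexes at 6 weeks and higher in 6 of 6 in females at 1 week, where 15.3% of all genes were. Hepatocyte markers, which mark the main source of plasma complement, were called higher in 1 of 6 and 1 of 8. The hepatocyte counts and the erythroid counts at 6 weeks were near or below the shares of all genes. So were the male mesothelial count, the female pericyte and smooth muscle count and the female B and plasma cell count called lower. Summed over 6 genes in males, hepatocyte markers held 2.58 to 4.35 CPM in controls, 6.3 to 8.56 in uninduced and 7.13 to 62.9 in induced hearts. Summed over 8 genes in females, they held 5.70 to 8.26, 7.36 to 57.95 and 7.49 to 105.9 CPM. The female median was 27.5 CPM in uninduced hearts and 9.58, 21.2 and 17.75 CPM at 1, 3 and 6 weeks. *Alb*, albumin, reached at most 61.7 CPM at 6 weeks.

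**Figure D5:**
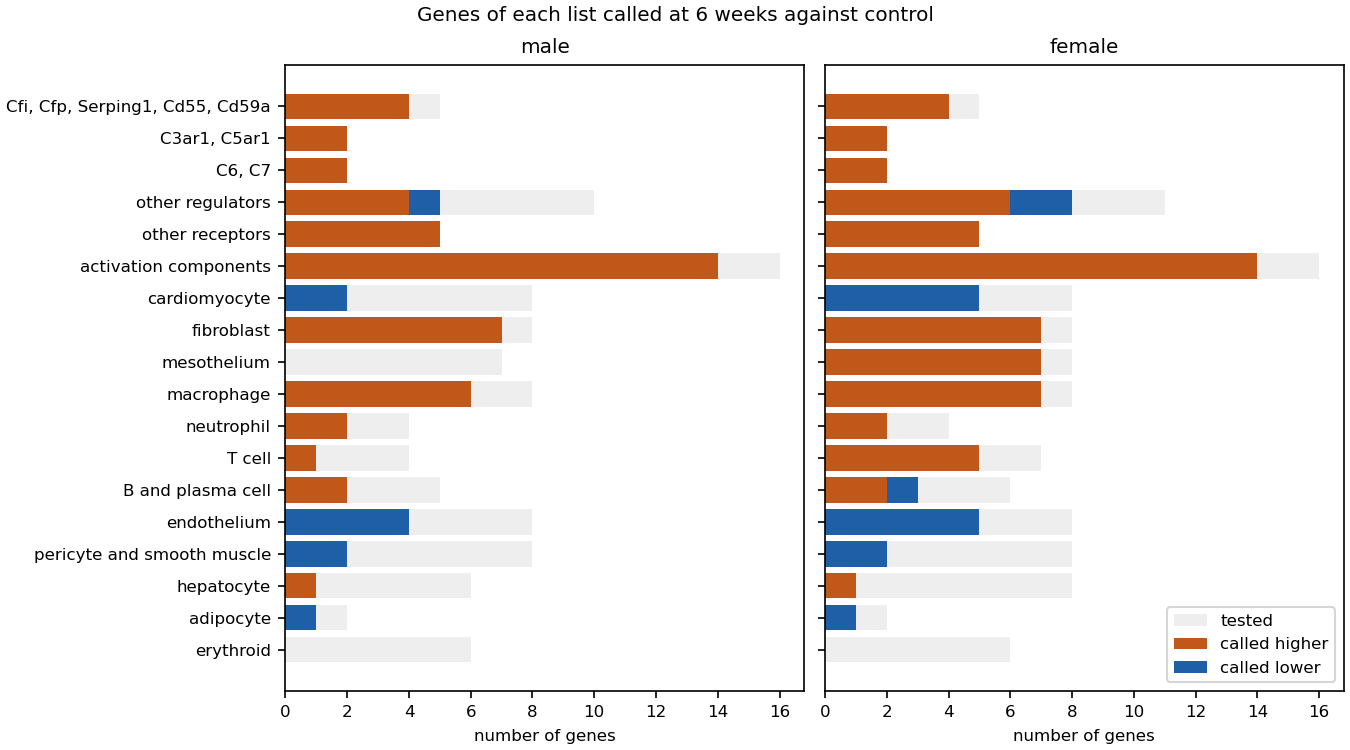
Number of genes of each list (y axis) tested, called higher and called lower at 6 weeks against control (x axis, number of genes), males left and females right. The top 3 bars are the genes described here. The fibroblast, macrophage, activation and other receptor lists have most of their genes called higher in both sexes. In females the mesothelial, T cell and other regulator lists do so as well. The list of other terminal components is not drawn.

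The genes whose log2 values ran most like a member across the 18 male and 20 female libraries were ranked by the lower of the correlations in the 2 sexes, over 16627 genes. For *Cfi* these were *Clca3a1*, *Serpina3m* and *P4ha3* (lower r 0.99 each), for *Serping1* *C1rb*, *Lbp* and *Rnase4* (0.98), for *C6* *Efemp1*, *Cxcl13* and *Sfrp4* (0.97 to 0.98), and for *C7* *Nfasc*, *C1s1* and *C3* (0.94). For *Cfp* they were *Itih3*, *Efemp2* and *Lcp2* (0.96), for *C5ar1* *Siglece*, *P2rx7* and *Ms4a6d* (0.92), for *Cd55* *Pla2g4a*, *Twf1* and *Myof* (0.85 to 0.88), and for *Cd59a* *Gstk1*, *Ndufv2* and *Mrps36-ps2* (0.74 to 0.77). All libraries of a group share the group's shift, which enters these values.

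With the group means taken out, the closest genes were *Lox*, *P4ha3* and *Gas6* for *Cfi* (lower r 0.74 to 0.78), *Loxl1*, *Pld3* and *Galns* for *Serping1* (0.83 to 0.84) and *Ndufv2*, *Atp5c1* and *Il15* for *Cd59a* (0.66 to 0.72). They were *Cap1*, *Dab2* and *Twf1* for *Cd55* (0.73 to 0.74), *Necap2*, *Arrb2* and *Basp1* for *Cfp* (0.66 to 0.67), *Csnk1a1*, *Sptlc2* and *C1s1* for *C7* (0.65 to 0.66) and *Cxcl13*, *Cd82* and *Bace2* for *C6* (0.65 to 0.66). For the receptors they were *Pigk*, *Rgl1* and *Mfap3* for *C3ar1* (0.60 to 0.61) and *Ifi207*, *Pirb* and *Sorbs3* for *C5ar1* (0.64 to 0.70). *C3ar1* and *Cd55* deviated together in both sexes (r = 0.56 and 0.51), while *Cfi* and *C5ar1* gave r of -0.45 in males and 0.61 in females. These are descriptions, and all genes of a library share its depth and scaling.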

How the data were processed

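The authors aligned polyA reads to GRCm39 with STAR, counted them per gene with featureCounts and deposited 1 table per sex. The deposited signal values are CPM after scaling per library, and 100% of them are within 0.001 of a whole read once each library's step is divided out. Tests used limma 3.58.1 (R 4.3.3, mean-variance trend) on log2(CPM + 0.5), all libraries of a sex in 1 fit, genes at 0.5 or more in at least 3 libraries, with Benjamini-Hochberg adjustment over 16931 male and 16956 female genes. Recovered reads were also tested with edgeR 4.0.16 and DESeq2 1.42.0. Scripts were tested on simulated data. Gene models are from a GENCODE release of GRCm39. The 9 genes and all lists were chosen with earlier results of these data known. Named are the 9 genes, genes of the pathway lists, *Il11* and the 3 genes closest to each member, and, chosen after values were seen, *Alb* and genes that overlap a member. Some of these results are not reported here. Of 40 libraries, 38 were used, and each is a separate mouse. Same-numbered libraries of different groups were not paired in the main fits, because the numbers are not stated to pair mice. The mean correlation of their deviations was 0.013 in males and 0.025 in females, which cannot show whether mice were paired.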

Additional observations from a re-analysis of the deposited data

Results flagged for a closer look

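The 2 male libraries with contradictory labels entered no comparison. In the library titled control and described as 6 weeks, 8 of the 9 genes lay above the highest male control library: *Cfi* at 35.8 CPM, *Cfp* at 29.3, *Serping1* at 510.4, *Cd55* at 21.3, *C3ar1* at 9.72, *C5ar1* at 16, *C6* at 7.79 and *C7* at 58.9 CPM. In the library titled 6 weeks and described as control, *Serping1* at 75.4 CPM lay above the highest male control, at 74.8 CPM. The other 8 genes were not above it, with *Cfi* at 0.0796 CPM, *Cfp* at 8.08, *Cd55* at 7.60, *Cd59a* at 57.1, *C3ar1* at 5.29, *C5ar1* at 5.65, *C6* at 0 and *C7* at 8.0 CPM. The share of all genes above the highest male control was not computed for either library. *Il11* was at 511 CPM in the first of these libraries and at 0.597 CPM in the second. No library stood apart from the others of its group in any of the 70 groups of 4 that were examined by Dixon's criterion. The male control and male 6-week groups, with 3 libraries each, were not examined. Groups with 3 reads or fewer in every library were also left out.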

How the results depend on the processing

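The counts of members called against control at 1, 3 and 6 weeks stayed within 1.5 times of those reported under pseudocounts of 0.1 and 2, no filter, a filter at 1 CPM in 4 libraries, median-of-ratios scaling, a minimum log2 fold change of 1, a fit of the compared groups alone, edgeR, DESeq2, the replicate block and each library left out. In uninduced males the replicate block called 1 member in place of 2, and leaving out 1 library gave 1 to 2. In uninduced females a minimum log2 fold change of 1 gave 2 in place of 5, a pseudocount of 2 gave 3, the compared groups alone gave 2 and leaving out 1 library gave 3 to 5. For 6 weeks against uninduced females the minimum fold gave 5 in place of 8. For 6 weeks against 1 week in males, a pseudocount of 2, median-of-ratios scaling and DESeq2 each gave 1 in place of 0, and leaving out 1 library 0 to 1. For 3 weeks against 1 week in females, a pseudocount of 2, the compared groups alone and DESeq2 gave 1 in place of 0, and leaving out 1 library 0 to 1, as it did for 6 weeks against 3 weeks in females and for the sex difference at 1 week. Signs turned only for differences that were not called. *C3ar1* in uninduced males was 0.023 with the replicate block and 0.012 with DESeq2, against -0.058, and ran from -0.37 to 0.26 without single libraries. *C3ar1* at 6 weeks against 1 week in males was -0.028 with the replicate block, against 0.052, and ran from -0.041 to 0.18, and in females from -0.25 to 0.003. Without single libraries *Cd55* in uninduced males ran from -0.013 to 0.37, and *Cd59a* from -0.18 to 0.0072 at 6 weeks and -0.041 to 0.14 in uninduced hearts against control in males, and for 6 weeks against 1 week from -0.041 to 0.13 in males and -0.046 to 0.054 in females, where *C7* ran from -0.092 to 0.19. Apart from the uninduced male count and *Cd55* in males at 6 weeks and *Serping1* in uninduced males, the replicate block changed no call. The causes were not tested. Median-of-ratios scaling moved the median of all genes by less than 0.1 on the log2 scale. Control reads of *Cfi* and *C6* limit the precision of their ratios.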
